A study of Mus musculus with 6 samples.

Results

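The Ifi200 genes are a family of interferon-inducible mouse genes, and 7 of them were followed here: Ifi202b, Ifi203, Ifi204, Ifi205, Aim2, Mndal and Pyhin1. Their probe sets were found by gene symbol in the platform annotation, where 6 of the 7 symbols matched 7 probe sets. Pyhin1 is an older name of Ifi209 in RefSeq, and with that name the members had 8 probe sets, of 41345 on the array with 23981 gene symbols in all. The family was chosen from the difference between transgenic and WT mice in these same values, in which Ifi202b stood out, so the differences of its members between the groups are given as a description with no test. The samples were gastrocnemius muscles of 3 transgenic mice and 3 WT mice, 1 mouse per Affymetrix Mouse Gene 2.0 ST array. All 6 mice were males aged 3 months, with the strain given as C57 in the labels and as C57BL/6 in the methods. The labels give the transgenic mice as DGAT1 knockout transgenic, whereas the methods of the study describe a porcine DGAT1 cDNA driven by a porcine MCK promoter, which is active in muscle, in offspring of founder mice mated to WT mice. Whether the 3 mice descend from 1 founder was not stated. The comparison addresses gene expression linked to DGAT1, an enzyme of triacylglycerol synthesis, in muscle.

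Proteins of this family carry a HIN domain, which binds DNA, and most of them also carry a pyrin domain, through which they meet partner proteins. Aim2 senses DNA in the cytosol and assembles an inflammasome with Pycard (ASC) and caspase-1, whereas p202, the product of Ifi202b, has no pyrin domain and holds Aim2 back. The genes lie side by side on chromosome 1 of the mouse, respond to interferon mainly in leukocytes, and Ifi202b is known to differ in level between inbred strains, with low levels in C57BL/6.

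Promoter sequences of the family are shown first, because they were searched for motifs through which interferon is known to act. The RefSeq promoters (build GRCm38.p6) run from 250 bases before to 50 bases after each transcription start. They were searched on both strands for the core of the interferon-stimulated response element (ISRE), the motif that interferon regulatory factors bind, and for the STAT site TTCNNNGAA, and no match of one overlapped the other in the promoters printed. Of the 12 family genes with a promoter entry, 9 had an ISRE core, against 3.99% of all 27025 genes with an entry. Among the members, 3 of 6 genes with an entry had it (Ifi203, Ifi205 and Mndal), and among the other family genes 6 of 6 did. Ifi204 had no entry. The following 40-base windows are from the strand of the gene, with the ISRE core in capitals.
Mndal: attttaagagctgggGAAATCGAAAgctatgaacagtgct
Ifi205: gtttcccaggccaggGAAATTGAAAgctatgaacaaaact
Ifi211: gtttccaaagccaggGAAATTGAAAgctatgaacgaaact
Ifi207: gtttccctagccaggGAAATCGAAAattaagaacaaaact
Ifi208: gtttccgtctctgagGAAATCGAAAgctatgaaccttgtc
The window of Ifi203 had 0 differences from that of Mndal, and the window of Ifi213 had 0 differences from that of Ifi208. The windows of Ifi205 and Ifi211 differed at 3 of 40 positions, and those of Ifi205 and Ifi207 at 6. On the strand of the gene, the letters GAAATCGAAA stood in 7 of the family genes and GAAATTGAAA in 2, Ifi205 and Ifi211. In Ifi203, Mndal, Ifi206, Ifi207 and Ifi211 the first base of the core lay at positions -41 to -35 from the start, and in Ifi205 at -134. On the opposite strand a second core, with other middle letters, lay at position 24 in Ifi205 and at -54 from another start of Mndal. The windows lie within the promoters of Mndal (chr1:173880138-173880437), Ifi205 (chr1:174031706-174032005), Ifi211 (chr1:173912997-173913296), Ifi207 (chr1:173741760-173742059) and Ifi208 (chr1:173673415-173673714), on the minus strand except for Ifi208 on the plus strand.

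The promoter of Ifi202b (chr1:173982795-173983094, minus strand) is shown whole because its gene had the largest difference between the groups in the family. Its capitals mark the STAT site, whose first base lay at position -148 from the start.
Ifi202b: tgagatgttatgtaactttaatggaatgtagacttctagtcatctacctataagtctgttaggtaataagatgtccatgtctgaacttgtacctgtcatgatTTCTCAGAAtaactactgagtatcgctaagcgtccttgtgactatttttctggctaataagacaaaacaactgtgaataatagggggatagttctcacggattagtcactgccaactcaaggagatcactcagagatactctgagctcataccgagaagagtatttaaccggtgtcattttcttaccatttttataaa
The promoter held no ISRE core, and neither did those of Aim2 and Ifi209. The STAT site motif was in 9.55% of all genes with an entry. With 1 mismatch allowed, the promoters of Ifi202b and Aim2 had 1 ISRE core each and that of Ifi209 had 4, and 35.4% of all promoters had at least 1. A match is a description of letters in these windows only.

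**Figure D1:**
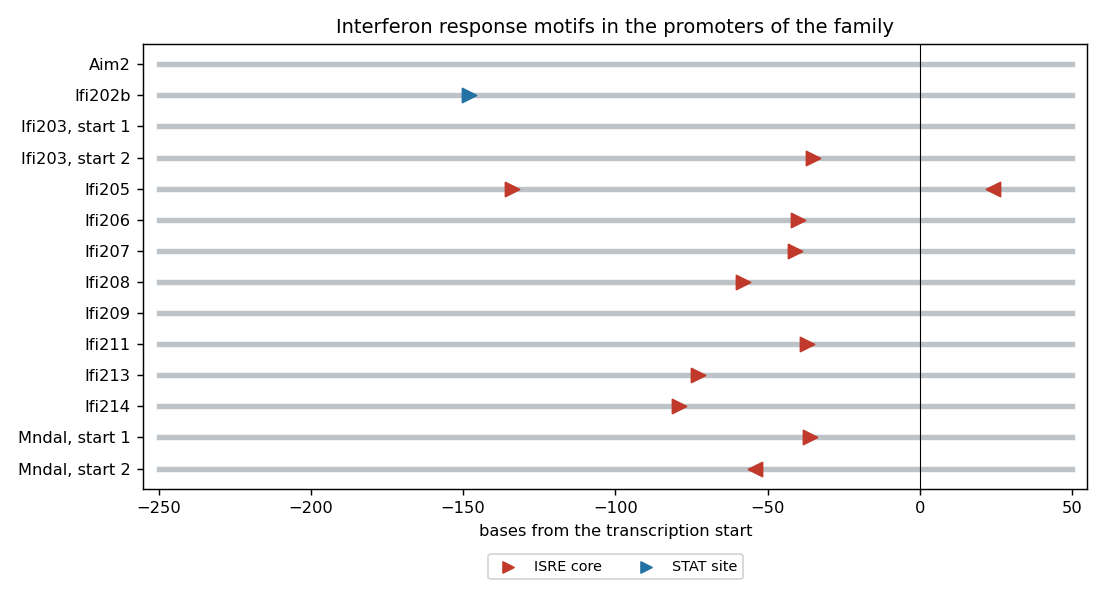
ISRE cores (red) and STAT sites (blue) in the RefSeq promoters of the family, by bases from the transcription start, with each gray line a promoter and the arrow giving the strand of the motif relative to the gene. ISRE cores lay between positions -79 and -35 in promoters of Ifi203, Mndal, Ifi206, Ifi207, Ifi208, Ifi211, Ifi213 and Ifi214. The promoters of Ifi202b, Aim2 and Ifi209 had no ISRE core, and of these only that of Ifi202b had a STAT site.

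Expression is given as the deposited log2 value of a probe set, on which a difference of 1 is a doubling. A value tells nothing of one gene against another, since probe sets differ in brightness. Array medians were 5.71 to 5.88. Markers of muscle fibers, such as myosin heavy chains and creatine kinase, had mean values of 12.34, 12.33 and 12.25 in transgenic mice and 12.38, 12.34 and 12.34 in WT mice over 13 probe sets, in keeping with the labeled tissue in all 6 arrays. Mouse Dgat1 read 8.09, 7.65 and 7.73 in transgenic mice and 7.96, 7.26 and 7.79 in WT mice and overlapped between the groups. The transgene is porcine, so this does not measure it. Of all 41345 probe sets, 618 (1.49%) had an unadjusted p under 0.05 by limma with at least a 1.5-fold difference, called the study threshold below, and 281 (0.680%) had it by the methods' t-test. After Benjamini-Hochberg adjustment by limma 0 probe sets were under 0.05, and 1197 (2.90%) were under 0.05 unadjusted. By the methods' t-test 0 were under 0.05 after adjustment as well.

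Ifi202b was the family member whose values lay apart between transgenic and WT muscle. Its probe set read 5.20, 4.18 and 5.50 in transgenic mice and 3.68, 3.74 and 3.62 in WT mice. All transgenic values lay above all WT values, as they did for 2.90% of all probe sets. The means were 4.96 ± 0.69 in transgenic mice and 3.68 ± 0.06 in WT mice (SD, n = 3 each), a log2 difference of 1.28 (standard error 0.33) or 2.43-fold. Nearly all of the spread was among transgenic mice, where replicate 2 was closest to the WT mice. WT values lay near the lowest 10% of values on their arrays (3.58 to 3.85), so the level of Ifi202b in WT muscle was close to the floor of the array. The deposited values carry no call of detection, and a fold against such low values can understate the difference. Without transgenic replicate 3 the difference was 2.02-fold, and without transgenic replicate 2 it was 3.18-fold. In whole muscle, more cells of a type that expresses a gene and more RNA per cell cannot be told apart.

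Of the 8 member probe sets, 1 was past the study threshold, that of Ifi202b, beside 1.49% of all probe sets. It was also past the threshold by the methods' t-test. The comparison chose the family, and nothing is read from this count.

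**Figure D2:**
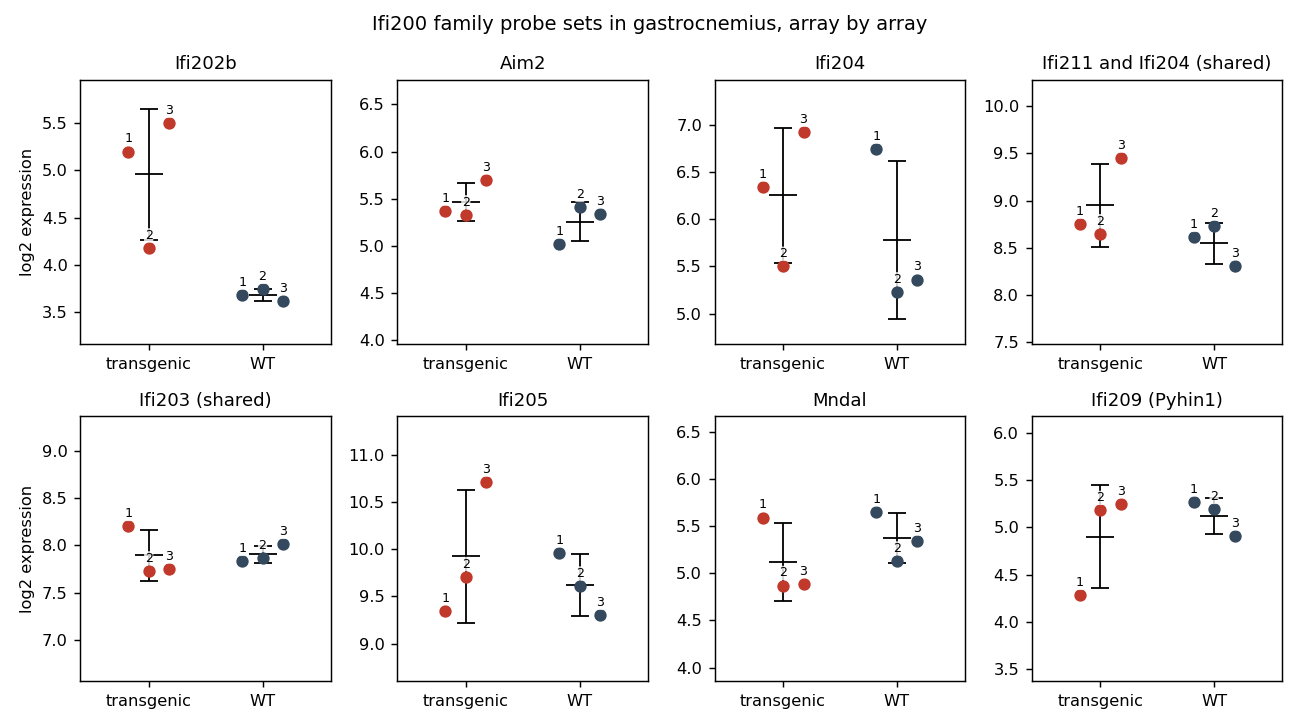
Log2 expression of the 8 member probe sets in transgenic mice (red, left) and WT mice (blue, right), with replicate numbers beside the points, and bars for the mean and SD of 3 mice; all panels span the same number of log2 units. Ifi202b is the probe set in which all transgenic values (4.18 to 5.50) lie above all WT values (3.62 to 3.74).

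Aim2, the DNA sensor that p202 restrains, read 5.37, 5.33 and 5.70 in transgenic mice and 5.02, 5.41 and 5.34 in WT mice. The groups overlapped, with transgenic replicate 3 highest and WT replicate 1 lowest. The log2 difference was 0.21 (standard error 0.18) or 1.16-fold, with means of 5.47 ± 0.20 in transgenic mice and 5.26 ± 0.21 in WT mice (SD, n = 3 each).

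Ifi204 encodes p204, which binds the retinoblastoma protein and Id proteins and is known from the differentiation of mouse myoblasts. Its own probe set read 6.34, 5.50 and 6.92 in transgenic mice and 6.74, 5.23 and 5.36 in WT mice. High values came from transgenic replicates 1 and 3 and WT replicate 1, and low values from the other 3 mice, so the groups overlapped over most of their range. The log2 difference was 0.48 (standard error 0.50), and it was 0.14 without transgenic replicate 3 and 0.96 without WT replicate 1. The same 3 arrays had the highest mean values of the hepatocyte markers, at 8.23, 5.38 and 9.08 in transgenic mice and 9.10, 6.76 and 5.27 in WT mice, and the part of this in the Ifi204 values was not tested. Ifi202b had the same order in the transgenic mice, at 5.20, 4.18 and 5.50, but was low in WT replicate 1, at 3.68. The part of this in the Ifi202b values was not tested either.

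A second probe set is annotated to both Ifi211 and Ifi204, and its signal cannot be divided between them. It read 8.75, 8.65 and 9.45 in transgenic mice and 8.61, 8.73 and 8.31 in WT mice. Transgenic replicate 3 stood above the other 5 mice, which lay between 8.31 and 8.75. The log2 difference was 0.40 (standard error 0.25) or 1.32-fold.

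Ifi205, which in mouse macrophages is known to control the expression of Pycard, read 9.35, 9.71 and 10.71 in transgenic mice and 9.96, 9.61 and 9.30 in WT mice. Here too transgenic replicate 3 was the highest array, and the other transgenic mice lay within the WT range. The log2 difference was 0.30 (standard error 0.36) and became -0.09 without transgenic replicate 3. Pycard itself had a log2 difference of -0.03.

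Ifi203 was measured only by a probe set that it shares with Ifi203-ps, a pseudogene, and an unnamed locus. That probe set read 8.20, 7.73 and 7.75 in transgenic mice and 7.83, 7.87 and 8.01 in WT mice. Its log2 difference of -0.01 (standard error 0.18) was the smallest in size among the members, and the groups overlapped.

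Mndal, named for its likeness to the human myeloid nuclear differentiation antigen, read 5.59, 4.87 and 4.89 in transgenic mice and 5.65, 5.13 and 5.34 in WT mice. Both groups had their highest value in replicate 1, and the log2 difference was -0.26 (standard error 0.25). Ifi209, the Pyhin1 of older annotations, read 4.28, 5.18 and 5.25 in transgenic mice and 5.27, 5.19 and 4.91 in WT mice. Transgenic replicate 1 was the lowest array, and without it the log2 difference of -0.22 (standard error 0.28) became 0.09. Thus 3 of the 8 member probe sets had lower means and 5 higher means in transgenic mice, and beside Ifi202b their groups overlapped.

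Transgenic replicate 3 had the highest value in 5 of the 8 member probe sets, and in 12.0% of all probe sets with 1 gene symbol. Without Ifi202b, the mean over the 7 member probe sets was 6.84, 6.71 and 7.24 in transgenic mice and 7.01, 6.74 and 6.65 in WT mice. Transgenic replicates 1 and 2 therefore lay within the WT range on this mean, whereas replicate 3 lay above it. The median log2 difference was 0.26 over the 8 member probe sets and 0.21 without Ifi202b, beside -0.02 over all probe sets with 1 gene symbol, of which 46.0% had a higher mean in transgenic mice.

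The 5 other family genes on the array stood near the members, with a median log2 difference of 0.26 and 0 of 5 past the study threshold. Among all probe sets with 1 gene symbol, 0.353% were past the threshold with higher and 0.221% with lower values in transgenic mice. A count of 0 among so few genes therefore tells little. The log2 difference was 0.60 for Ifi214, 0.39 for Ifi207, 0.26 for Ifi213, 0.03 for Ifi208 and -0.23 for Ifi203-ps. Ifi214 spread the most among mice of a group, with 4.38, 3.37 and 4.94 in transgenic mice and 2.40, 4.95 and 3.52 in WT mice. The 2.40 of WT replicate 1 lay within the lowest 5% of values on its array (up to 2.91). By mean level Ifi208 and Ifi214 stood at percentiles 9.06 and 11.8 of all probe sets, so the floor of the array limits their differences. In each of the 5 genes the groups overlapped. Ifi207, Ifi208, Ifi213 and Ifi214 carry an ISRE core, and so do Mndal and Ifi205, whereas Ifi202b, Aim2 and Ifi209 do not.

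The position of a gene does not depend on its values, so the genes around the family were also described. In RefSeq order the members with a probe set of their own follow each other as Aim2, Ifi209, Ifi204, Mndal, Ifi202b and Ifi205, with other family genes between some of them. By its promoter, Ifi203 lies between Mndal and Ifi202b, but its probe set is shared with other loci and was left out of this ordering. The log2 difference of that probe set was -0.01, that of Mndal -0.26 and that of Ifi205, on the other side of Ifi202b, 0.30. Within 1 Mb on either side, 41 probe sets of other genes were measured, and 0 were past the study threshold by limma. Among all probe sets with 1 gene symbol, 0.353% were past the threshold with higher and 0.221% with lower values in transgenic mice. At shares this low, a count of 0 in a set of this size tells little. The 41 probe sets had a median log2 difference of 0.05, with 26 higher and the rest lower in transgenic mice. They ran from -0.39 for Apcs, the serum amyloid P component, and for the olfactory receptor gene Olfr1406 to 0.51 for the pentraxin gene Mptx2. Of them 20 were olfactory receptors, with a median of 0.05, and the 21 others had a median of 0.08.

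**Figure D3:**
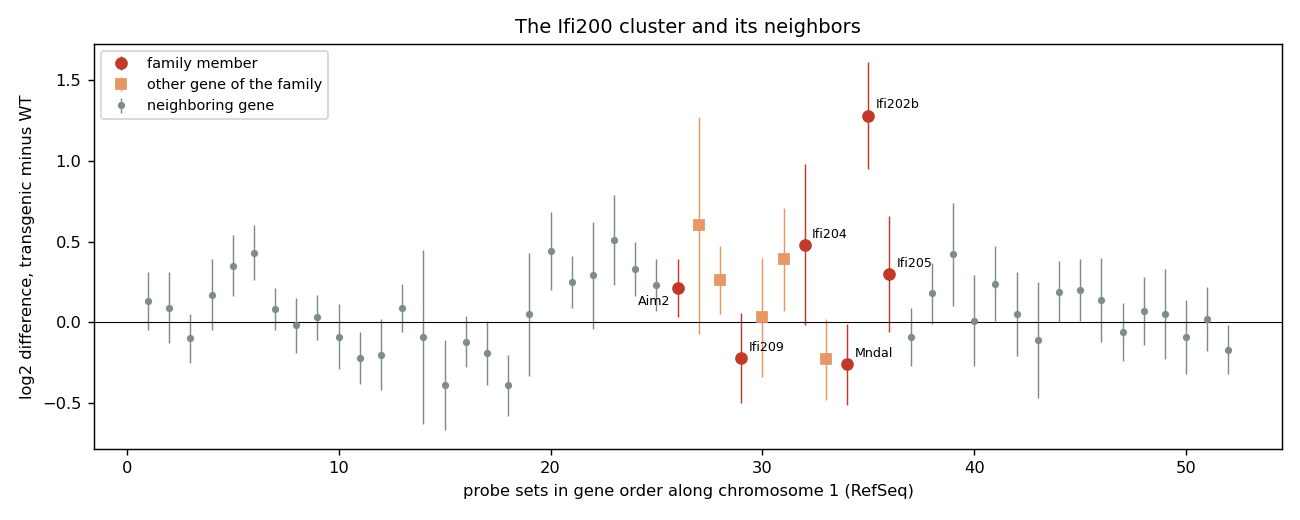
Log2 difference, transgenic minus WT, of probe sets with 1 gene symbol in RefSeq gene order along chromosome 1, for family members (red circles), other family genes (orange squares) and genes within 1 Mb (gray); bars are standard errors from limma, and probe sets with several symbols, such as that of Ifi203, are not shown. Ifi202b lies at 1.28, Mndal at -0.26 and Ifi205 at 0.30, and the genes within 1 Mb lie between -0.39 and 0.51.

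Genes that interferon induces had nearly the same values in both groups. Of 40 listed genes 33 were measured by 34 probe sets, and 0 were past the study threshold in either direction, where 0.353% of probe sets with 1 gene symbol were past it with higher values and 0.221% with lower values in transgenic mice. At shares this low, a count of 0 tells little in this list or in the smaller lists below. The median log2 difference of the interferon-induced genes was -0.02, with 16 higher and 18 lower means. The list means were 6.64, 6.33 and 6.57 in transgenic mice and 6.68, 6.35 and 6.52 in WT mice. Isg15, a ubiquitin-like protein that interferon induces strongly, read 5.06, 5.19 and 4.78 in transgenic mice and 4.91, 5.26 and 4.71 in WT mice. Ifit1, which binds viral RNA, read 7.20, 6.80 and 6.99 in transgenic mice and 7.12, 7.06 and 7.00 in WT mice. Isg15 and Ifit1 were named after their values were seen, as standard reporters of interferon. At the ends of the list were Ifitm3, a membrane protein that blocks virus entry, at 0.35 (standard error 0.22), and Igtp, an interferon-induced GTPase, at -0.24 (standard error 0.35).

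Upstream of these genes, the interferons, their receptors and signaling proteins had 16 of 17 genes measured by 18 probe sets, 0 past the threshold and a median of -0.02. They ran from -0.21 for the kinase gene Tyk2 to 0.29 for the feedback inhibitor Socs3. Socs3 was highest in transgenic replicate 3, at 8.0, with 6.30 and 5.83 in the other transgenic mice and 6.31, 6.29 and 6.65 in WT mice. Its other probe set had a log2 difference of -0.10.

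Genes of cytosolic DNA sensing, the pathway to which Aim2 and p204 belong, had 17 of 20 measured, 0 past the threshold and 8 higher and 9 lower means. Cgas, the enzyme that senses DNA and makes the messenger cGAMP, had a log2 difference of -0.08. Sting1, the receptor of cGAMP, had the largest difference of the list and read 7.44, 6.71 and 7.17 in transgenic mice and 7.08, 5.81 and 6.66 in WT mice. Its groups overlapped, and the log2 difference was 0.59 (standard error 0.35). It was past the threshold at 1.83-fold without WT replicate 1. At the low end was Xrcc6, a subunit of the Ku complex that binds DNA ends, at -0.26.

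In the inflammasome list 16 of 16 genes were measured by 17 probe sets, 0 past the threshold, with 11 higher and 6 lower means and a median log2 difference of 0.07. Casp1, the protease that Aim2 activates through Pycard, had a log2 difference of 0.03. Il1b, the cytokine that caspase-1 cleaves, had 4.62, 5.06 and 8.98 in transgenic mice and 4.83, 5.20 and 5.07 in WT mice. Its difference of 1.18 (standard error 1.06) came from transgenic replicate 3, and the other transgenic mice lay within or below the WT range. Naip5, a sensor of bacterial flagellin, was at the low end with -0.27.

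p202 and p204 are known to bind transcription regulators, among them the retinoblastoma protein, MyoD, c-Fos and Id proteins. Of 22 genes listed as partners 19 were measured by 20 probe sets, and 0 were past the study threshold. The median log2 difference was -0.07, with 7 higher and 13 lower means. Myod1, the regulator of myogenic differentiation, had the lowest difference of the list and read 8.64, 8.86 and 8.86 in transgenic mice and 9.42, 9.05 and 9.52 in WT mice. All transgenic values lay below all WT values, as for 4.31% of all probe sets, and the log2 difference was -0.54 (standard error 0.18) or 0.686-fold, short of the fold minimum. It was past the threshold at 0.622-fold without WT replicate 2. Fos, a subunit of the AP-1 transcription factor, had the highest difference at 1.02 (standard error 0.49), with 7.05, 5.97 and 7.90 in transgenic mice and 5.57, 6.49 and 5.79 in WT mice. In Fos, transgenic replicate 2 lay within the WT range, so the groups overlapped. Fos was past the threshold at 2.87-fold without transgenic replicate 2. With array weights both Fos (2.61-fold) and Myod1 (0.619-fold) were past it.

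The family is expressed mainly in leukocytes, so markers of other cells were read beside it. Macrophage markers had 14 of 15 means higher in transgenic mice, with a median log2 difference of 0.34, which was 0.18 without transgenic replicate 3. Beside this list and those below, 46.0% of all probe sets with 1 gene symbol had a higher mean in transgenic mice. In Lyz2, Cd68, Csf1r, Cd14, Fcgr1 and Itgam all transgenic values lay above all WT values, as for 2.90% of all probe sets. In the other markers of the list the groups overlapped. The list means were 7.23, 6.95 and 7.49 in transgenic mice and 6.94, 6.75 and 7.00 in WT mice. Of the 15, 1 was past the study threshold, beside 0.353% of all probe sets with 1 gene symbol past it with higher values. This was Cd68, a lysosomal protein of macrophages, with 7.75, 7.69 and 8.44 in transgenic mice and 7.26, 7.18 and 7.51 in WT mice. Its difference was 1.56-fold, and it was not past the threshold by the methods' t-test or without transgenic replicate 3, WT replicate 1 or WT replicate 2. The count of macrophage markers past the threshold was 0 without each of these 3 arrays, 2 without WT replicate 3 and 4 without transgenic replicate 2. Ptprc (CD45), carried by all leukocytes, was highest in transgenic replicate 3, with 6.39, 6.05 and 7.82 in transgenic mice and 5.96, 5.73 and 6.09 in WT mice. Ptprc had the largest log2 difference of the list, 0.82 (standard error 0.44), and C1qa, a complement component made by macrophages, the smallest at -0.01. Ifi202b and the macrophage markers were both high in transgenic replicates 1 and 3, and the part of these cells in the Ifi202b values was not tested.

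Neutrophil markers had a mean of 5.13, 5.12 and 6.95 in transgenic mice and 4.87, 5.35 and 5.17 in WT mice, with 0 of 7 past the threshold and a median log2 difference of 0.69. Transgenic replicate 3 alone was high, and without it the median was 0.08. With array weights Cxcr2 (3.05-fold) and Retnlg (1.99-fold) were past the threshold. Cxcr2, the chemokine receptor of neutrophils, had the largest difference, with 6.22, 6.38 and 9.03 in transgenic mice and 6.03, 6.47 and 5.92 in WT mice, and Ly6g the smallest at -0.10. Il1b, Socs3, Aim2, Ifi205, the own probe set of Ifi204 and that of Ifi211 and Ifi204 had their highest value in the same array, transgenic replicate 3. The part of neutrophils in these values was not tested. Ifi202b was also highest in that array, at 5.50. Its 2.02-fold difference without that array does not test the part of neutrophils. Hepatocyte markers had 9 of 9 higher means and 0 past the threshold, with a median log2 difference of 0.44 and Fgg, a fibrinogen chain, at the top with 0.97 and Apoa1 at the bottom with 0.07. This direction rested on single arrays, since the median was -0.13 without transgenic replicate 3 and -0.29 without WT replicate 3, against 1.48 without transgenic replicate 2 and 1.59 without WT replicate 1. With array weights the median was 2.08 and 6 of the 9 were past the threshold. Muscle fiber markers had a median of -0.07 and 0 of 13 probe sets past the threshold, between 0.39 for a probe set of Ckm and -0.24 for Myh2. The other probe set of Ckm was at -0.12, opposite in sign. With array weights 1 probe set of Ckm was past the threshold, at 1.56-fold.

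**Figure D4:**
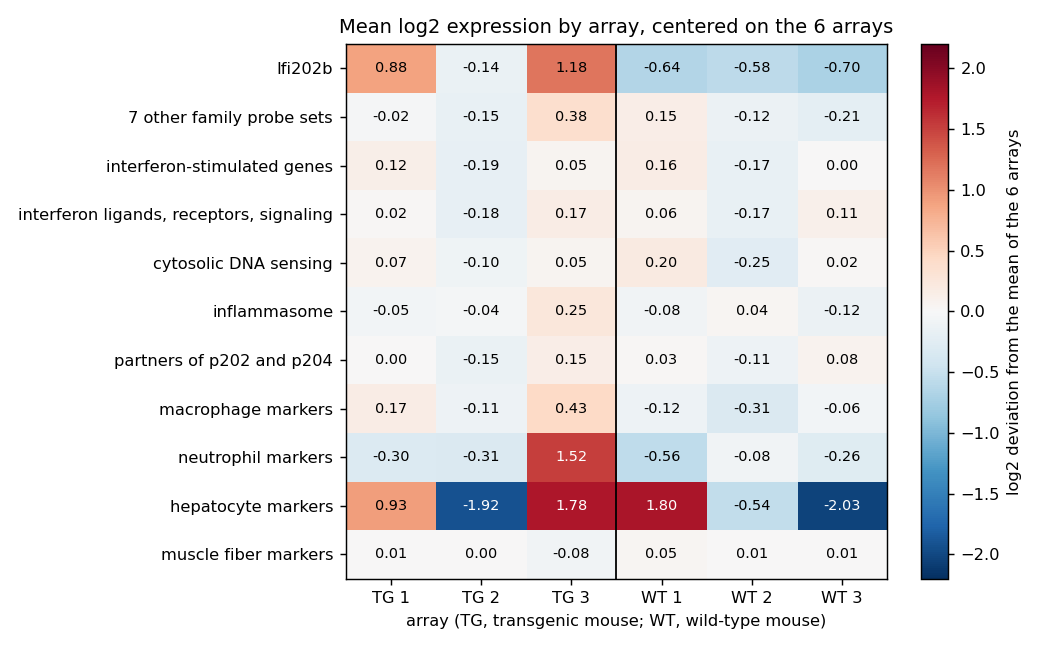
Mean log2 value of Ifi202b and of each gene list in each array (TG, transgenic; WT, wild type), minus the mean of the 6 arrays, as color and number. The interferon-stimulated genes stay between -0.19 and 0.16, whereas Ifi202b is at 0.88 and 1.18 in transgenic replicates 1 and 3, neutrophil markers are at 1.52 in transgenic replicate 3, and hepatocyte markers follow neither group.

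The genes with the pattern most like that of Ifi202b over the 6 arrays were found by the root mean square difference of values centered on their own mean. These are Egr1 (0.284), an immunoglobulin kappa variable segment (0.299), Ccn1 (0.311), D5Ertd579e (0.344) and Fos (0.346). Egr1, Fos and Ccn1 are known as immediate early genes. Egr1 read 7.87, 6.36 and 8.55 in transgenic mice and 6.17, 6.54 and 6.50 in WT mice. The immunoglobulin segment read 4.64, 3.45 and 5.17 in transgenic mice and 2.44, 2.73 and 3.02 in WT mice. In all 5 genes transgenic replicates 1 and 3 were the highest arrays. In the immunoglobulin segment all transgenic values lay above all WT values, whereas in Egr1 transgenic replicate 2 lay within the WT range. Since the measure uses the contrast itself, these genes are a description, and arrays shared by all genes enter each value. Among the members the most like was the probe set of Ifi211 and Ifi204 (0.523), at rank 155 of 23515 probe sets. Aim2 (0.636) was at rank 1137, Ifi204 (0.637) at 1153 and Ifi205 (0.669) at 2003. Mndal (0.880) and Ifi209 (0.942) were at ranks 20243 and 22170, so the members lay on both sides of the middle of the ranking.

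**Figure D5:**
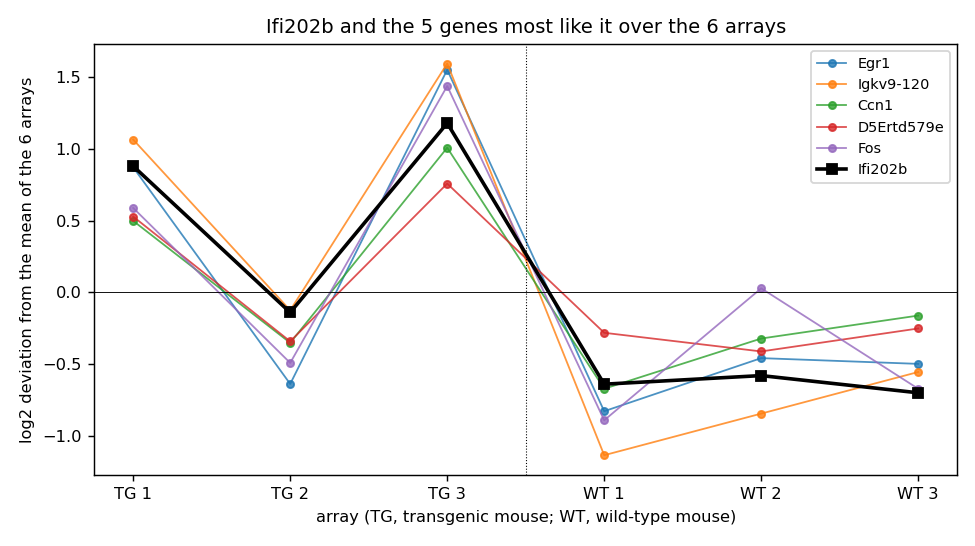
Log2 values of Ifi202b (black) and the 5 genes most like it, each centered on its mean over the 6 arrays (TG, transgenic; WT, wild type). All 6 lines have their highest points in transgenic replicates 1 and 3, and Egr1 has the smallest root mean square difference from Ifi202b, 0.284.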

How the data were processed

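Gastrocnemius RNA of 3 transgenic mice and 3 WT mice was measured on 1 Affymetrix Mouse Gene ST 2.0 array each. The deposited values are log2 expression values of 41345 probe sets that the authors normalized between arrays, with RMA named in the submitters' notes and GeneChip Operating System 1.4 and GeneSpring GX 10.0 in the methods. Background correction and summary over probes were part of that step, and low values are compressed toward the background. Array data have no counting depth, and 3 mice per group limit the precision.

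Gene names came from the platform annotation, updated through RefSeq, with 23521 probe sets carrying 1 symbol. Transgenic and WT mice were compared over all probe sets by limma 3.58.1 in R 4.3.3 (lmFit and eBayes), with an unadjusted p under 0.05 and at least 1.5-fold as the study threshold. The methods' t-test (unpaired) was an alternative. An exact permutation test of 3 mice against 3 cannot give a p below 0.1 and was not used. The fits were tested on simulated data. The gene lists hold interferon-stimulated genes, interferon signaling, cytosolic DNA sensing, inflammasomes, partners of p202 and p204, strain-variable genes, and markers of macrophages, B cells, T and NK cells, dendritic cells, neutrophils, eosinophils, endothelium, adipocytes, hepatocytes and muscle fibers. Members and lists were chosen with earlier results of these data known.

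Named genes are all member probe sets, the genes of each list and of the neighbors past the threshold or with the largest and smallest log2 difference, and the 5 genes most like Ifi202b; a few further genes (Isg15, Ifit1, Cgas, Pycard, Casp1, the other family genes) were added for their role. Alternatives were array weights, an intensity trend, median centering, quantile normalization, removal of dim probe sets or of those without 1 symbol, a replicate block, and each array left out.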

Additional observations from a re-analysis of the deposited data

How the results depend on the processing

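Ifi202b kept its direction in each of 10 alternatives for its difference, between 1.01 without transgenic replicate 3 and 1.67 without transgenic replicate 2 when arrays were left out, and it was past the study threshold in each alternative that tested it. Of the member probe sets 1 was past the threshold, against 3 with array weights, where the probe set of Ifi204 (1.95-fold) and that of Ifi211 and Ifi204 (1.62-fold) joined it. It was 0 of the 4 left after removal of dim probe sets, since Ifi202b itself is removed there. Leaving out arrays kept the count at 1. Of all probe sets 618 were past the threshold, against 281 by the methods' t-test and 2610 with array weights. The count was 146 of 20673 without dim probe sets and 174 of 23521 with only those carrying 1 symbol. In the main fit 83 of these 23521 were past it with higher and 52 with lower values, so their count changed with the refit. Without single arrays the count over all probe sets was 732 to 1335, with 1106 without WT replicate 1 and 1335 without WT replicate 2. Whether the replicate numbers pair the mice cannot be settled with 3 arrays per group. The deviations of same-numbered arrays correlated at 0.331, 0.396 and -0.166, and those of differently numbered arrays at -0.460 to 0.175. With the replicate number as a block 921 probe sets were past the threshold, Ifi202b among them at a log2 difference of 1.28 as the 1 member, and Sting1 (log2 difference 0.59), Ptprc (0.82) and Plin1 (0.62) were newly past it. The median of the interferon-stimulated genes was -0.06 to 0.08 without single arrays, and that of the genes within 1 Mb was -0.01 to 0.14, where Mptx2, Olfr1404 and Olfr430 were past the threshold without WT replicate 2. Mptx2 was also past it with array weights, at 1.56-fold. Ifi202b, the 1 member past the threshold, was reversed in 0 of its 10 alternatives. Members not past it did change sign without single arrays. There were 3 such changes for the probe set of Ifi203, 1 for Ifi205 and 1 for Ifi209. Where not stated, the cause of a change was not tested. Probe sets near the floor, such as Ifi202b in WT mice, limit the precision of its fold.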

Other observations

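In the lists of other leukocytes the median log2 differences lay between -0.04 and 0.06, and Ccr3 was the 1 marker past the study threshold. Ccr3, the eotaxin receptor of eosinophils, had 4.61, 4.79 and 4.90 in transgenic mice and 3.82, 3.93 and 4.12 in WT mice. The difference was 1.75-fold, and 0.353% of all probe sets with 1 gene symbol were past the threshold with higher values. By mean level Ccr3 stood at percentile 16.8 of all probe sets, beside 16.2 for Ifi202b, so the floor of the array limits its fold too. The other 4 of the 5 eosinophil markers were not past it, with Epx, the eosinophil peroxidase, at a log2 difference of -0.16, and the median of the list was -0.03, between -0.20 without WT replicate 1 and 0.11 without WT replicate 2. B cell markers had 0 of 6 past the threshold and a median of 0.04, between -0.16 for Cd22 and 0.07 for Cd79b. T and NK cell markers had 0 of 9 and a median of -0.04, between -0.19 for Prf1 and 0.15 for Cd4. Dendritic cell markers had 0 of 7 probe sets past the threshold and a median of 0.06. Without transgenic replicate 2 the median was 0.22, with 1 past the threshold, a probe set of Cd209a (1.98-fold). Both ends of the list were probe sets of Cd209a, at 0.56 and -0.20, which disagreed in sign. In Siglech and Zbtb46 all transgenic values lay above all WT values, as for 2.90% of all probe sets, and in the rest of this list the groups overlapped. Among endothelial markers 0 of 7 passed, at a median of 0.10, between -0.10 for Tie1 and 0.32 for Cldn5. Adipocyte markers had 6 of 6 means higher, 0 past the threshold and a median of 0.25, between 0.02 for Fabp4 and 0.62 for Plin1, the lipid droplet protein perilipin. Their median was 0.03 without transgenic replicate 3, 0.11 without WT replicate 2, 0.15 without WT replicate 1, 0.55 without WT replicate 3 and -0.02 with array weights. Plin1 was past the threshold without transgenic replicate 2 (1.83-fold), and Retn, the hormone resistin, without WT replicate 3 (1.75-fold).

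Of 18 other genes known to differ between inbred mouse strains, 16 were measured by 17 probe sets. Of these 0 were past the study threshold, with 9 higher and 8 lower means and a median log2 difference of 0.00. They ran from -0.59 for Gm5431 to 0.33 for Trim12a, and 1 was past the threshold without transgenic replicate 3. The part of strain background in the Ifi202b values was not tested.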
